A study of Rattus norvegicus with 2 samples.

Results

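The cells described here were the part of the Otor-rich mesenchyme of the rat cochlear duct that held little S100b and Col9a2. Cochlear duct tissue of Sprague-Dawley rats was measured by droplet single-cell RNA sequencing in 1 library at P1 and 1 at P7, each from a pool of many animals. The labels give no allele, agent or treatment, and both libraries were made in the same way after the stria vascularis, spiral ligament and spiral ganglion had been taken off by microdissection. The members were chosen by their measured values. A barcode was a member if it had more than 500 and fewer than 5000 genes, under 25% of its UMIs on mitochondrial genes and no UMI of the cell division genes Top2a and Ube2c, with Otor at 1% or more and Crym at 0.3% or more of its UMIs, S100b plus Col9a2 below 0.2%, at most 2 UMIs of Car3 and at most 1 of Cldn5. A UMI (unique molecular identifier) stands for 1 captured transcript. Of 28569 deposited barcodes, 25360 passed the limits on genes and mitochondrial UMIs (kept cells), and 752 of these were members, 623 at P1 and 129 at P7. They are called S100b-Col9a2-low cells below.

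With 1 library per age and no record of which animal a cell came from, age and library cannot be told apart, and no test between ages or sets of cells was run. Each interval is an exact 95% one, by the Poisson method for a UMI count and by that of Clopper and Pearson for a share, and takes in no error but that of counting. Levels are UMIs of a gene per 1000000 UMIs, summed over the cells of a set (CPM), given as the P1 value and then the P7 value. Ratios are log2 ratios of CPM plus 5, so they understate differences of low genes.

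Otor encodes otoraplin, a small secreted protein of the family of melanoma inhibitory activity, and is known for its expression in the mesenchyme of the cochlea. Crym encodes mu-crystallin, a cytosolic protein that binds thyroid hormone, and its mutation is a known cause of hearing loss. Fibrocytes are the connective tissue cells of the lateral wall and spiral limbus of the cochlea, and subtypes of them are told apart by position, by ion transport proteins, and by markers such as the calcium-binding protein S100b. Col9a2 encodes a chain of collagen IX, which in cartilage-like matrix sits on fibrils of collagen II and collagen XI.

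The P1 library held 114285848 UMIs over 14068 barcodes and the P7 library 101264868 over 14501, and 12779 and 12581 cells were kept. The S100b-Col9a2-low cells had medians of 6341 UMIs and 2079 genes at P1, and of 8035 UMIs and 2597 genes at P7. Thinned to 2000 UMIs each, which left out 2 and 3 cells, they had medians of 931 and 999 genes, against 964 and 1021 over all kept cells. Mitochondrial UMIs had medians of 6.43% and 7.33%. Their summed UMIs were 4611526 and 1121326, so that intervals at P7 are wider. The doublet caller Scrublet marked 36 of the P1 cells (5.78%) and 8 of the P7 cells (6.20%), against 4.87% and 6.16% of all kept cells, and they stayed in. Of 60 barcodes that occur in both libraries, 4 belonged to S100b-Col9a2-low cells of P1 and 0 to those of P7.

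The label of fibrocytes was checked against markers. Pou3f4, a transcription factor of the otic mesenchyme whose loss causes deafness, stood at 637.5 CPM at P1 and 443.2 CPM at P7, against 411.9 and 302.9 CPM in all other kept cells. Tbx18, a T-box factor needed for fibrocyte development, stood at 459.7 and 375.4 CPM, against 309.0 and 305.9 CPM. Both mesenchymal factors were thus above the other cells at either age. Coch, the secreted cochlin of fibrocytes, had 158.5 and 66.9 CPM, and the fibrocyte protein otospiralin (Otos) had 2.82 CPM (1.501 to 4.82) and 14.3 CPM (8.16 to 23.2). After thinning, Otos had a UMI in 0.322% of the cells at P1 and 4.76% at P7, against 1.54% and 4.26% of macrophage-like cells with at least 10 UMIs of C1q genes, where it should be absent. Without thinning the shares were 1.93% and 12.4%, against 2.27% and 8.22%, at median depths of 6341 and 8035 UMIs against 7786 and 7254. Otos was therefore at the level of background RNA in these cells. The sum over 9 fibrocyte and cochlear mesenchyme markers was 4857 and 3279 CPM in the low cells, below the 5896 and 4734 CPM of the rich cells and the 6445 and 7052 CPM of all other kept cells. The label of fibrocytes thus rests on transcription factors and not on the sum of its markers. Vim (vimentin) made up most of that sum, with 3348 and 1855 CPM against 4636 and 4408 CPM in the other cells. Tbx15 had 1 UMI at each age, and Col1a1 had 27.5 and 19.6 CPM, of which 1 cell held 21.3% at P1 and 22.7% at P7.

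GEO labels both libraries as greater epithelial ridge cells, an epithelium. Epcam, the defining epithelial marker, had 3.90 CPM (2.31 to 6.17) at P1 and 5.35 CPM (1.964 to 11.7) at P7, against 34.4 and 41.3 CPM in all other kept cells. The sum over 12 markers of the ridge and tectorial epithelium was 36.9 and 91.9 CPM, against 143.4 and 164.2 CPM, and Krt18, Otoa, Otog and Otogl were at 0 at P7. Of the P7 sum, 54.4 CPM were Calb1 (calbindin), which had 4.34 CPM at P1. All other kept cells held Calb1 at 18.3 and 5.77 CPM. Crabp1 had 12.1 and 9.81 CPM against 8.33 and 5.405 CPM, and 1 cell held 30.4% and 27.3% of its UMIs. Epcam was thus near the floor and the sum of the list below the other cells, whereas Calb1 at P7 and Crabp1 were above them. By in situ hybridization the paper places Otor nearly only in the ridge at P1, and reports less Otor and Ccn3 there at P7. It takes a cluster with high Otor and Crym for ridge cells. The position of the cells described here was not measured.

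Of the 5 markers proposed for these cells, Otor and Crym belong to the rule. The other 3 were compared with the S100b-Col9a2-rich cells, that is the 981 P1 and 750 P7 cells that met every other limit of the rule but had S100b plus Col9a2 at 0.2% or more. Cytl1, a small secreted protein, had 79.6 and 124.0 CPM in the S100b-Col9a2-low cells, 147.8 and 493.7 CPM in the rich cells and 47.3 and 120.6 CPM in all other kept cells. Aldh3a1, an aldehyde dehydrogenase, had 38.4 and 37.5 CPM, against 137.1 and 83.1 CPM in the rich cells and 28.0 and 27.7 CPM in the others. Ppp1r1b, an inhibitor of protein phosphatase 1, had 25.8 and 74.9 CPM, against 41.7 and 163.9 CPM and 21.2 and 58.0 CPM. All 3 were lower than in the rich cells at both ages and near the level of the other cells, so they do not set the S100b-Col9a2-low cells apart. Nor were they particular to the rich cells, since the Cldn5 cells described below held Aldh3a1 at 53.6 and 119.0 CPM, and the Car3 cells held more Cytl1 and Ppp1r1b than the rich cells.

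**Figure D1:**
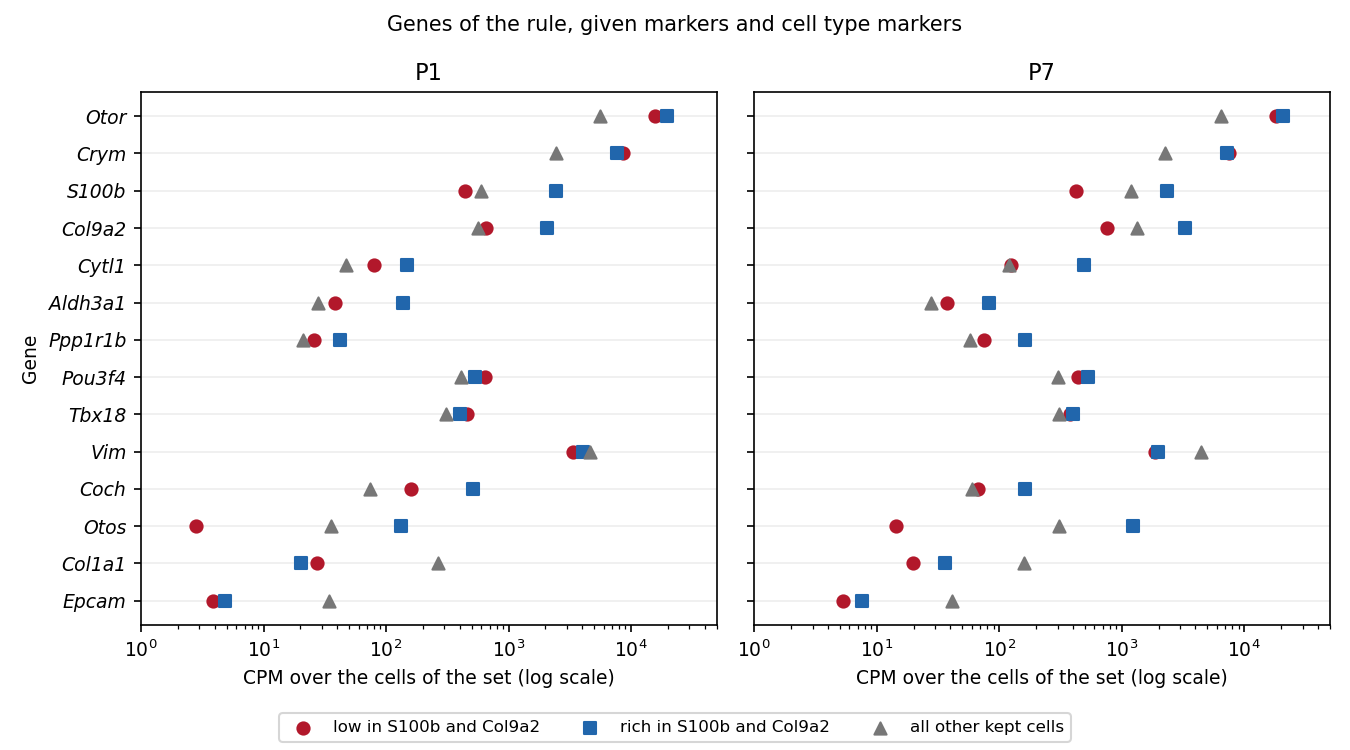
Levels of the genes of the rule, the proposed markers and cell type markers in CPM (log scale) at P1 and P7, with 1 point per library for the S100b-Col9a2-low cells, the S100b-Col9a2-rich cells and all other kept cells. Otos lies at 2.82 and 14.3 CPM in the low cells and at 132.4 and 1229 CPM in the rich cells, and Cytl1, Aldh3a1 and Ppp1r1b lie below the rich cells at both ages.

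S100b-Col9a2-low cells were a smaller share of the P7 library than of the P1 library. They made up 4.88% of kept cells at P1 (4.51 to 5.26) and 1.03% at P7 (0.857 to 1.22), a log2 ratio of -2.25 (-2.53 to -1.97). All cells with Otor and Crym above the limits and no UMI of the cell division genes (Otor-Crym-high cells) numbered 1836 at P1 and 1461 at P7. The low cells made up 33.9% of these at P1 (31.8 to 36.2) and 8.83% at P7 (7.42 to 10.4). The rich cells made up 53.4% (51.1 to 55.7) and 51.3% (48.7 to 53.9) of them. Of kept cells the rich cells made up 7.68% at P1 (7.22 to 8.15) and 5.96% at P7 (5.55 to 6.39). Cells with 3 or more UMIs of Car3, a carbonic anhydrase, and at most 1 UMI of Cldn5 (Car3 cells) numbered 19 and 321. They were 1.04% (0.624 to 1.61) and 21.97% (19.9 to 24.2) of the Otor-Crym-high cells. Cells with 2 or more UMIs of Cldn5, a tight junction protein (Cldn5 cells), numbered 213 and 261, or 11.6% (10.2 to 13.2) and 17.9% (15.9 to 19.9). Shares of a dissociated library also depend on the dissection and on which cells survive it, whose part was not tested. S100b and Col9a2, on whose sum the rule sets a fixed limit, had log2 ratios of P7 to P1 of 0.99 and 1.23 in all other kept cells and of -0.069 and 0.67 in the rich cells, and their part in the share was not tested.

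**Figure D2:**
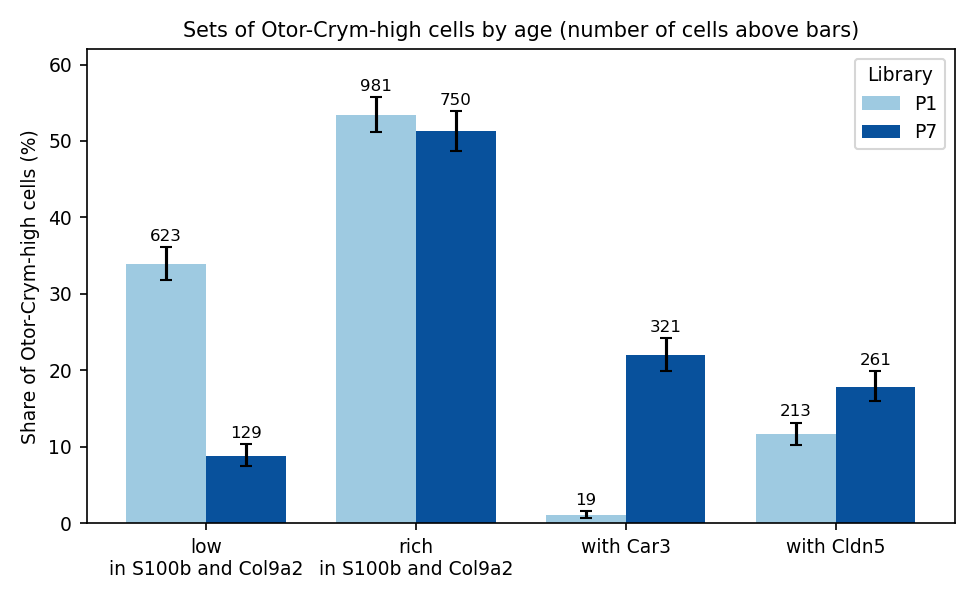
Share of each set among the Otor-Crym-high cells (percent) in the P1 and P7 libraries, with exact 95% intervals as bars and the number of cells above them. The S100b-Col9a2-low cells stand at 33.9% at P1 and 8.83% at P7, and the rich cells at 53.4% and 51.3%.

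Many members lay near a limit. At P1, 74 members had S100b plus Col9a2 between 0.18% and 0.2% of UMIs and 68 cells lay between 0.2% and 0.22%, with medians of 0.190% and 0.211%. At P7 these numbers were 17 and 22. Between 1% and 1.1% of Otor lay 65 members of P1 and 12 of P7, and 65 and 13 cells lay between 0.9% and 1%. For Crym, 38 and 11 members lay below 0.35%, and 31 and 8 cells between 0.25% and 0.3%. The set was therefore a range cut from a continuum. The limits on Car3 and Cldn5 removed 152 of 775 cells at P1 and 42 of 171 at P7, and 102 and 13 members had 1 UMI of Cldn5.

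Within the set, Otor took from 1% to 3.996% of a cell's UMIs at P1, with a median of 1.54%, and from 1.03% to 4.16% at P7, with a median of 1.68%. Crym took from 0.303% to 2.70% at P1, with a median of 0.806%, and from 0.306% to 2.22% at P7, with a median of 0.674%. S100b plus Col9a2 had medians of 0.116% and 0.127%, and 14 and 2 cells had no UMI of either. These values follow the limits of the rule at their lower or upper end. Summed, Otor stood at 15735 CPM at P1 and 18248 CPM at P7, and Crym at 8617 and 7555 CPM. Over cells thinned to 2000 UMIs, Otor and Crym had a Spearman rho of 0.14 at P1 (621 cells) and 0.00018 at P7 (126 cells), in cells that share a library and that were all picked for high values of both.

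Among the most abundant other named transcripts were Ptn, which encodes the heparin-binding growth factor pleiotrophin, with 10813 and 13304 CPM, and Ccn3, a secreted matricellular protein, with 3408 and 4010 CPM. Tpt1, a housekeeping transcript, had 7635 and 7162 CPM. Ptn had a UMI in every member, from 0.159% to 2.92% of UMIs at P1 (median 1.05%) and from 0.360% to 2.51% at P7 (median 1.31%). Ccn3 varied far more between cells. It was at 0 in 26 P1 cells and 8 P7 cells, had medians of 0.208% and 0.241%, and reached 1.59% and 2.40%. Its ninetieth percentile was 0.870% and 1.17%. In the S100b-Col9a2-rich cells its medians were 0.103% and 0.108%. Among the genes of the thinned cells its ratio of variance to mean was 7.64 at P1 and 12.9 at P7, against 5.11 for Crym at P1 and 6.11 for Otor at P7. Ccn3 and Ptn had a rho of 0.45 over the 621 cells at P1 and of 0.29 over the 126 cells at P7.

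Apoe, a lipid carrier abundant in macrophages and glia, was another variable gene, with a ratio of variance to mean of 7.21 and 5.93. Its median was 0.0216% of UMIs at P1 and 0.138% at P7. The C1q-bearing cells held Apoe at 13448 and 13774 CPM, and the S100b-Col9a2-low cells at 642.5 and 2243 CPM. The macrophage marker sum of the low cells was 67.2 CPM at P1 and 29.4 CPM at P7. At P1 1 cell held 61.7% of the UMIs of C1qb and 50% of those of C1qc. The part of macrophage RNA in the Apoe level was not tested.

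The nearest comparison was with the S100b-Col9a2-rich cells of the same library. Since the rule split the Otor-Crym-high cells by S100b and Col9a2, differences between both sets describe the split and support nothing further. Of 7217 genes with at least 10 CPM on average, 27 (0.374%) were at least 2-fold higher in the low cells at both ages and 34 (0.471%) at least 2-fold lower. Taken age by age, 41 genes (0.568%) were higher and 70 (0.97%) lower at P1, and at P7 94 (1.3%) were higher and 134 (1.86%) lower. The median log2 ratio over all genes was 0.019 at P1 and 0.0045 at P7. Cav1, Fn1 and Aldh1a2 were among the genes higher in the low cells, and Otos, Cnmd and several genes of the cartilage matrix list among those lower. The higher genes are described by what each encodes. Some of them belong to lists of other mesenchyme or of matrix, given below, but no single list holds them all.

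Cav1, the main coat protein of caveolae, stood at 81.5 CPM (73.5 to 90.2) at P1 and 263.1 CPM (233.9 to 294.9) at P7, against 10.1 and 14.8 CPM in the rich cells, log2 ratios of 2.52 and 3.76. Its partners were also higher than in the rich cells. Cav2 had 9.32 and 33.9 CPM against 1.09 and 2.93 CPM, and Cavin2, a caveolar coat protein, had 33.2 and 64.2 CPM against 5.29 and 6.83 CPM. Caveolae, small pits of the cell membrane, are also abundant in endothelial cells and pericytes. The sum of 5 endothelial markers was 15.8 and 115.0 CPM in the low cells and 10.1 and 62.3 CPM in the rich cells. Of the P7 sum of the low cells 91.9 CPM were Plvap, whereas Cdh5 had 2.39 and 5.35 CPM and Flt1 was at 0 at P7. The sum of 5 pericyte markers was 83.3 and 199.8 CPM, against 75.01 and 96.4 CPM in the rich cells. Of these Pdgfrb gave 73.5 and 105.2 CPM, Abcc9 1.52 and 54.4 CPM, and Rgs5 6.07 and 29.4 CPM, of which 1 cell held 57.1% at P1 and 81.8% at P7. The part of such cells in the caveolar genes was not tested. Thinned to 2000 UMIs, 9.18% of low cells had a Cav1 UMI at P1 (7.03 to 11.7) and 29.4% at P7 (21.6 to 38.1), against 1.23% and 2.48% of rich cells and 3.08% and 3.55% of C1q-bearing cells. Without thinning the shares were 21.2% and 38.8% of low cells, 4.79% and 6.13% of rich cells, and 8.33% and 9.59% of C1q-bearing cells.

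Fn1 (fibronectin) stood at 228.3 CPM (214.8 to 242.6) and 736.6 CPM (687.2 to 788.6), against 79.5 and 132.2 CPM, log2 ratios of 1.47 and 2.44. Postn (periostin) had 385.8 and 444.1 CPM against 99.8 and 194.1 CPM, log2 ratios of 1.90 and 1.17. Tnc (tenascin C) had 18.9 and 27.7 CPM against 2.80 and 7.64 CPM, and Itga8, an integrin chain of a fibronectin receptor, 41.9 and 55.3 CPM against 8.56 and 14.6 CPM. These 4 genes were picked from those higher at both ages. In the list of interstitial matrix to which Fn1 belongs, 17 of its genes were compared. Of these 1 was higher at P1 and 2 at P7, and 3 were lower at P7. Over all genes 0.568% and 1.3% were higher, and 1.86% were lower at P7. The medians of the list were -0.0090 and -0.14 against 0.019 and 0.0045 over all genes. Over cells, Cav1 and Fn1 had a rho of 0.28 at P1 (621 cells) and of 0.55 at P7 (126 cells).

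Aldh1a2, the main enzyme of retinoic acid synthesis in embryos, had 51.4 and 66.0 CPM against 6.07 and 7.97 CPM in the rich cells, log2 ratios of 2.35 and 2.45. After thinning it had a UMI in few low cells, 5.15% at P1 (3.55 to 7.20) and 7.94% at P7 (3.87 to 14.1). In rich cells the shares were 1.23% and 1.24%, and in C1q-bearing cells 3.08% (0.845 to 7.69) and 2.13% (0.441 to 6.09). At P1 the intervals of low and C1q-bearing cells thus overlapped for Aldh1a2. It also belongs to a list for Aldh1a2-rich mesenchyme, with Scara3, Clu and Calb2. Of 3 genes compared, 1 was higher at P1, and 2 were higher and 1 lower at P7, with medians of 0.80 and 1.59. The list summed to 203.4 and 292.5 CPM, against 108.9 and 360.6 CPM in the rich cells and 396.2 and 538.9 CPM in all other kept cells. Cyp1b1, which oxidizes retinoids and steroids, had 248.9 and 443.2 CPM against 120.1 and 107.9 CPM. Among transcription factors of the otic mesenchyme, 15 were compared, with 2 higher at P1, 2 higher and 1 lower at P7, and medians of 0.23 and 0.10. Over all genes 0.568% were higher at P1, and 1.3% were higher and 1.86% lower at P7. Nr2f1, an orphan nuclear receptor, was higher at both ages, with 92.4 and 245.2 CPM against 33.0 and 51.2 CPM. Irx3, a homeobox factor, had log2 ratios of 1.45 and 0.89, and Nr2f2, the paralogue of Nr2f1, 0.88 and 1.48. Further genes of the 27 were Stmn1, which destabilizes microtubules, with 524.3 and 696.5 CPM against 234.2 and 212.8 CPM, and Olfm1, a secreted olfactomedin, with 113.4 and 83.8 CPM against 27.4 and 21.3 CPM. Lypd6, Nsg1, Mme and Sfrp2 were also among them.

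The list for Ccn3-rich mesenchyme was made of Ccn3, Postn, Irx3 and Scg3. At P1 all 4 genes were at least 2-fold above the rich cells, with a median log2 ratio of 1.54. At P7 1 of 4 was, with a median of 0.89. Over all genes 0.568% were higher at P1 and 1.3% at P7. The sum of the list was 4065 CPM at P1 and 4748 CPM at P7 in the low cells, 1817 and 2530 CPM in the rich cells, and 5421 and 7780 CPM in the Cldn5 cells. Scg3, a secretory granule protein, had 80.9 and 29.4 CPM, against 22.9 and 28.1 CPM in the rich cells. Ribosomal protein genes summed to 248923 and 209344 CPM in the low cells, against 213673 and 171321 CPM in the rich cells. The Cldn5 cells held 246162 and 192580 CPM, so a sum above the rich cells was not particular to the low cells. Against the rich cells, 78 of 83 compared were above 0 on the log2 scale at each age. Their medians were 0.21 and 0.27, against 0.019 and 0.0045 over all genes.

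Of the 34 genes, Otos had the lowest ratio to the rich cells at both ages, which held it at 132.4 and 1229 CPM, log2 ratios of -4.14 and -6.001. Cnmd (chondromodulin), an inhibitor of vessel growth in cartilage, had 71.8 and 41.0 CPM against 476.4 and 900.4 CPM, log2 ratios of -2.65 and -4.30. Gcg, which encodes proglucagon, had 4.99 and 23.2 CPM against 43.9 and 1419 CPM, and 1 cell held 53.9% of its P7 UMIs in the low cells. Apod, a lipocalin, had 830.7 and 537.8 CPM against 2757 and 2827 CPM. These genes were far below the rich cells in both libraries, and for Otos, Cnmd and Gcg the ratio was lower still at P7, where the rich cells held more of them.

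Genes of cartilage-like matrix were lower as a list. Of 11 genes compared, 7 were at least 2-fold lower at P1 and 5 at P7 and 0 higher at either age. Over all genes 0.97% were lower at P1 and 1.86% at P7. The medians of the list were -1.13 and -0.98 against 0.019 and 0.0045 over all genes. Col9a1 and Col9a3, the partner chains of Col9a2 in collagen IX, had 2009 and 2049 CPM against 4386 and 6737 CPM, and 268.7 and 104.3 CPM against 599.2 and 388.7 CPM. Col2a1, the chain of collagen II, had log2 ratios of -1.24 and -1.17, and Col11a2, a chain of collagen XI, -1.24 and -1.41. Matn4, a matrilin, had 503.1 and 293.4 CPM against 1708 and 1500 CPM. Sox9, the transcription factor that drives several of these genes in cartilage, had log2 ratios of 0.14 at P1 and -0.93 at P7. Other secreted proteins among the 34 were Serpinf1 (pigment epithelium-derived factor), Mia, Fmod (fibromodulin) and Chi3l1.

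Of 12 compared genes known for inherited hearing loss, Crym of the rule included, 6 were at least 2-fold lower than in the rich cells at P1 and 5 at P7, and 0 were higher, against 0.97% and 1.86% of all genes lower. Their medians were -0.97 and -0.90, against 0.019 and 0.0045 over all genes. Col2a1, Col9a1, Col9a3 and Col11a2, which are also in the cartilage list, and Coch made up the lower genes at P7, and Col11a1 was added at P1. Coch had log2 ratios of -1.67 and -1.23. The gap junction gene Gjb2 had 34.9 and 77.6 CPM, log2 ratios of -0.82 and -0.96, and Pou3f4 had log2 ratios of 0.25 and -0.25. Of 10 compared genes for potassium handling and gap junctions, 1 was lower at each age, Gja1 at P1 and Atp1b1 at P7. Their medians were -0.70 and -0.36.

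**Figure D3:**
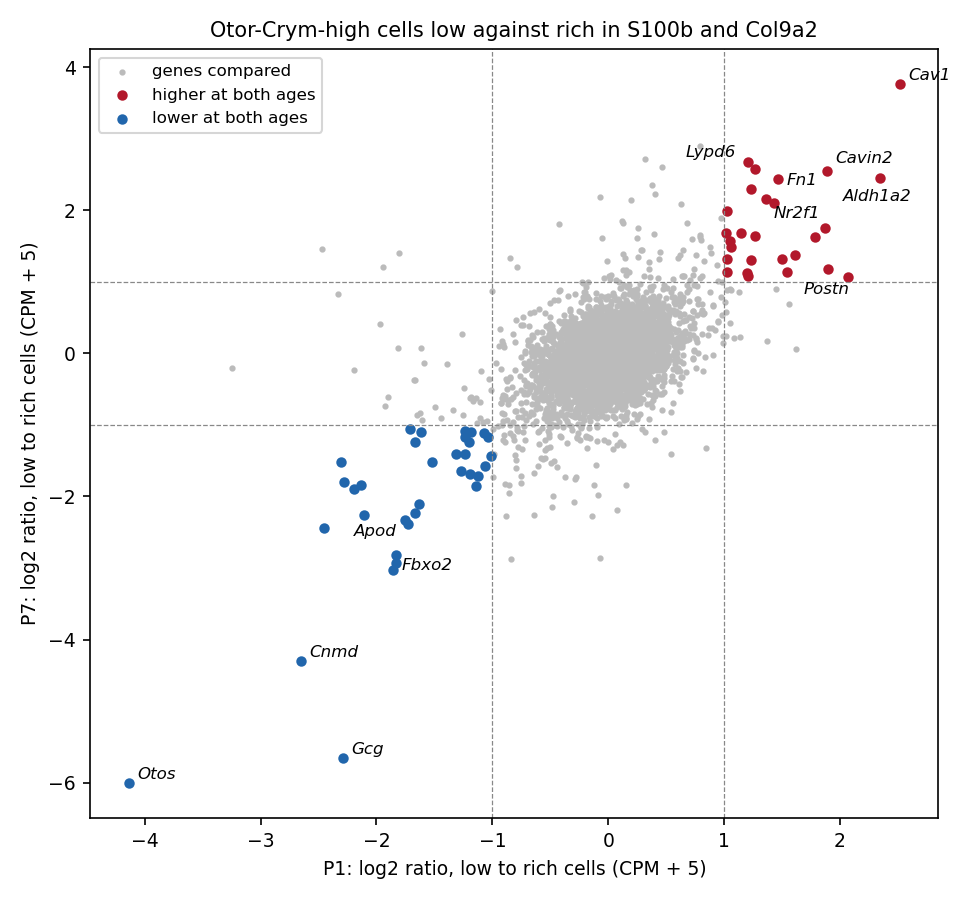
Log2 ratio of CPM plus 5 in the S100b-Col9a2-low cells to the S100b-Col9a2-rich cells at P1 (horizontal) and P7 (vertical), with 1 point per gene over 7217 genes and dashed lines at 2-fold. The 27 genes higher at both ages run up to Cav1 at 2.52 and 3.76, and the 34 lower ones, S100b and Col9a2 of the rule included, run down to Otos at -4.14 and -6.001.

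The Cldn5 cells, like the Car3 cells, were taken at any level of S100b and Col9a2. The log2 ratios of low to Cldn5 cells were -0.61 at P1 and -2.04 at P7 for S100b, and -0.54 and -1.87 for Col9a2. Against the Cldn5 cells few genes differed at both ages, with 8 of 7177 genes (0.111%) higher and 3 (0.0418%) lower. The higher genes were Cldn11, Clu, Frzb, Mgp, Mt2A, Prrx1, Tnc and Zfhx3. Mgp, an inhibitor of calcification, had 460.4 and 312.1 CPM against 188.8 and 129.7 CPM, and the metallothionein Mt2A had 98.7 and 135.6 CPM against 45.3 and 16.8 CPM. The lower genes were Cldn5, which the rule used, Cntn4 and Pmch. Cntn4, a contactin of the cell surface, had 24.3 and 25.9 CPM against 60.2 and 75.1 CPM, and Pmch, a neuropeptide precursor, 28.8 and 23.2 CPM against 64.3 and 867.3 CPM. Ccn3 was higher in the Cldn5 cells, with 4774 and 7337 CPM, as was Otor, with 18610 and 26544 CPM. Cav1 had 84.6 CPM in the Cldn5 cells at P1, a log2 ratio of low to Cldn5 cells of -0.050. At P7 it had 50.9 CPM there, a ratio of 2.26, at the age when S100b and Col9a2 also differed more. The part of the S100b and Col9a2 levels in this was not tested.

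Against the Car3 cells, 107 of 7191 genes (1.49%) were higher and 112 (1.56%) lower at both ages, with only 19 Car3 cells at P1. Cytl1 and Ppp1r1b of the proposed markers had 642.2 and 671.1 CPM, and 142.0 and 355.3 CPM, in the Car3 cells. Against all other kept cells, 10 of 7479 genes (0.134%) were higher and 238 (3.18%) lower at both ages. The higher genes were Otor and Crym of the rule and Apcdd1, Ccn3, Maob, Mt2A, Rerg, Rims2, Wif1 and Zfhx3. Maob, a monoamine oxidase, had 91.1 and 98.1 CPM against 25.8 and 36.2 CPM. Wif1, a secreted Wnt inhibitor, had 139.7 and 240.8 CPM against 42.9 and 62.1 CPM, and Apcdd1, a membrane Wnt inhibitor, 129.7 and 120.4 CPM against 54.0 and 50.1 CPM. Of these, Wif1, Apcdd1, Ccn3, Maob and Rerg were higher still in the Cldn5 cells at both ages.

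Between the ages, 530 of 7187 genes (7.37%) were at least 2-fold higher at P7 in the S100b-Col9a2-low cells and 227 (3.16%) at least 2-fold lower. The median log2 ratio over all genes was 0.14, and with that shift taken out 362 were higher and 371 lower, so that 49.4% of the genes called were higher in place of 70.0%. The P7 sum rests on 129 cells, and genes at low levels can pass 2-fold by counting alone. Rarres1, Bambi, Notum and Slco1c1 were among the genes higher at P7, and Egr1, Fos and Hist1h1e among those lower.

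Rarres1, a retinoid-responsive gene, stood at 6.94 CPM (4.75 to 9.80) at P1 and 253.3 CPM (224.7 to 284.5) at P7, a log2 ratio of 4.44, against 2.49 in the rich cells and 1.33 in all other kept cells. Bambi, a decoy receptor that damps TGF-beta signalling and is also a Wnt target, had 32.3 and 325.5 CPM, a log2 ratio of 3.15, against 1.78 and 1.73. Notum, a secreted enzyme that inactivates Wnt proteins, had 54.9 CPM (48.3 to 62.1) and 404.9 CPM (368.5 to 443.9), a log2 ratio of 2.78, against 0.65 and 0.88. These 3 genes had larger ratios in the low cells than in the rich cells or in all other kept cells. In the Cldn5 cells the ratios were 3.23 for Rarres1, 1.87 for Bambi and 2.38 for Notum, so that of Notum was near the one in the low cells. For C1qtnf5, a short-chain collagen-like protein, the ratios in the low and rich cells were 2.52 and 2.48, and for Pmepa1, an inhibitor of TGF-beta signalling, 2.38 and 2.42. Plvap, a protein of endothelial diaphragms, had 6.72 and 91.9 CPM and a log2 ratio of 3.05, against 2.83 in the rich cells, which held it at 2.65 and 49.4 CPM. Apoe had ratios of 1.80 in the low cells and 2.09 in the rich cells.

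Cav1, Cav2, Fn1 and Nr2f1, all higher than in the rich cells at both ages, were also at least 2-fold higher at P7 than at P1 in the low cells, whereas Cavin2, Postn, Tnc and Itga8 had ratios of 0.86, 0.20, 0.45 and 0.36. For Cav1 the log2 ratio between the ages was 1.63, against 0.39 in the rich cells and -1.23 in all other kept cells. In the Cldn5 cells, taken at any level of S100b and Col9a2, it was -0.68. At P1 the low cells did not stand above the Cldn5 cells or all other kept cells in these genes, with log2 ratios of -0.050 and -1.02 for Cav1 and of -0.43 and -0.32 for Fn1. Fn1 had 1.67, against 0.70 and 0.17, and Nr2f1 1.36, against 0.57 and -0.16. Postn had 0.20, against 0.93 and -0.15. Of 16 genes of the interstitial matrix compared, 4 were higher and 2 lower (7.37% and 3.16% over all genes), with a median of -0.10 against 0.14. The higher ones were Fn1, Col3a1 (220.5 and 501.2 CPM), Dcn (120.1 and 332.6 CPM) and Eln, the elastin gene (18.7 and 74.0 CPM). The lower ones were Col14a1 (91.3 and 29.4 CPM) and Col5a1 (27.5 and 10.7 CPM), which encode fibril-associated and fibrillar collagens. Of 9 compared genes of basement membrane, Sparcl1 was higher and Col4a2 and Lamc1 were lower, with a median of -0.55. Col4a2, a chain of collagen IV, had 68.5 and 15.2 CPM. In the cartilage list 2 of 10 compared genes were higher and 1 lower, with a median of -0.071.

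Of 14 listed genes that handle thyroid hormone, which Crym binds, 6 were compared, Crym of the rule included. Of these 2 were higher at P7 and 0 lower (7.37% and 3.16% over all genes), with a median of 0.083, below the 0.14 over all genes. Slco1c1, a thyroid hormone transporter, stood at 37.7 CPM (32.3 to 43.8) and 214.9 CPM (188.6 to 243.8), a log2 ratio of 2.36, against 3.27 in the rich cells and 1.89 in the others. Thrb, the thyroid hormone receptor beta that is needed for hearing, had 26.7 and 132.0 CPM, a log2 ratio of 2.11, against 1.69 and 1.00. Thra, the receptor alpha, had 269.8 and 159.6 CPM, and Dio3, which degrades the hormone, had no UMI, which allows up to 0.800 CPM at P1 and 3.29 CPM at P7. Both genes that were higher were thus also higher at P7 in the rich cells. Of 10 compared genes for potassium handling and gap junctions 3 were higher, against 7.37% of all genes, with a median of 0.74 against 0.14. These were Gjb6 (9.32 and 50.8 CPM), Gjb2 (34.9 and 77.6 CPM) and Fxyd1, a regulator of the sodium pump (44.0 and 100.8 CPM). Their log2 ratios of P7 to P1 in the rich cells were 1.72, 1.19 and 1.34. The ratios in all other kept cells were 1.46, 1.33 and 0.91. Higher levels of these 3 genes at P7 were thus not particular to the low cells. Kcnj10 and Slc26a4, a channel of the stria and an anion exchanger, had no UMI in the low cells.

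Egr1, an immediate early gene, had 454.7 and 78.5 CPM, a log2 ratio of -2.46, against -2.35 in the rich cells and -2.25 in all other kept cells. Fos had 626.3 and 199.8 CPM, a ratio of -1.62, against -1.30 and -1.73. Of 15 compared immediate early and heat shock genes, Egr1, Fos, Fosb and Ier2 were lower and Hspb1 and Hspa1b higher. Over all genes 3.16% were lower and 7.37% higher. The median of the list was -0.67 against 0.14 over all genes. Immediate early and heat shock genes respond to tissue dissociation, whose part was not tested. The linker histone genes Hist1h1b and Hist1h1e had 43.6 and 7.13 CPM and 264.8 and 64.2 CPM, with similar ratios in the other cells (-2.00 and -1.96, against -2.03 and -2.22). For 4 of the 15 genes with the lowest ratios of P7 to P1, the low cells of P7 held at most 3 UMIs. Stmn2, a neuronal microtubule protein, had 33.8 CPM (28.7 to 39.6) and 0.892 CPM (0.0226 to 4.97), Nrgn, a calmodulin-binding neuronal protein, 41.6 CPM (36.0 to 48.0) and 2.68 CPM (0.552 to 7.82), Nap1l5 28.8 CPM (24.2 to 34.2) and 0.892 CPM (0.0226 to 4.97), and Adamts20, a secreted protease, 24.9 CPM (20.6 to 29.9) and 1.78 CPM (0.216 to 6.44). The sum of 5 neuron markers was 69.8 and 8.92 CPM in the low cells and 634.4 and 41.4 CPM in all other kept cells, so it was lower at P7 in both. Stmn2 is itself 1 of the 5 markers and gave 33.8 and 0.892 CPM of the sum in the low cells, and the part of neurons was not tested.

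**Figure D4:**
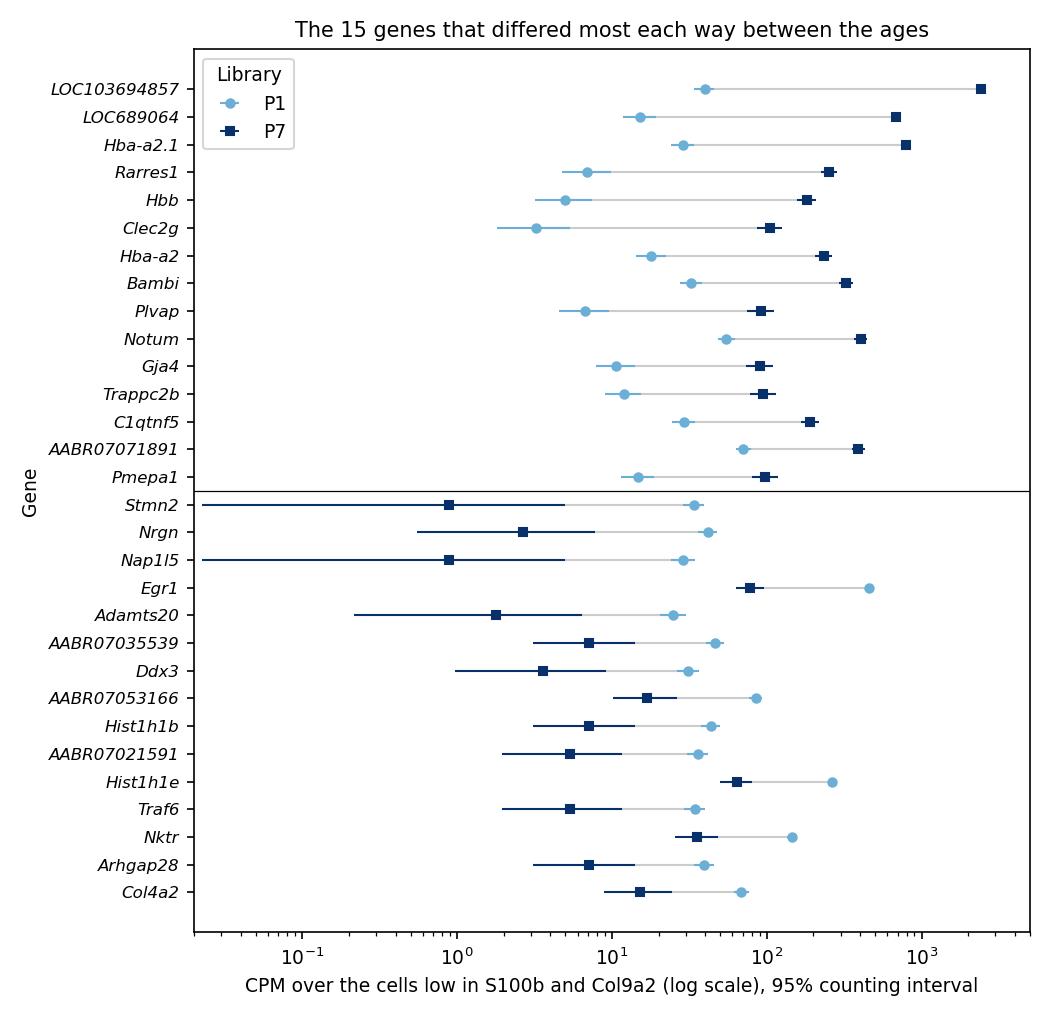
Levels in CPM (log scale) of the 15 genes with the largest ratio each way between the libraries in the S100b-Col9a2-low cells, with P1 as circles, P7 as squares and exact 95% counting intervals as bars. Rarres1 runs from 6.94 to 253.3 CPM and Notum from 54.9 to 404.9 CPM, and the lower genes Stmn2 and Nap1l5 rest on 1 UMI each at P7.

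LOC103694857, LOC689064 and Hba-a2.1 had the 3 highest ratios between the ages, and 1 cell held most of their P7 UMIs and of those of the haemoglobin genes Hbb and Hba-a2. The sum over 4 annotated haemoglobin genes, LOC103694857 and LOC689064 was 4871 UMIs at P7, of which 1 cell held 4345 (89.2%), the next cell held 23 and the median cell 4. That cell had 14154 UMIs, with 1.43% Otor and 0.827% Crym, and Scrublet did not mark it. With it the log2 ratios were 5.77 for LOC103694857, 5.08 for LOC689064, 4.57 for Hba-a2.1, 4.22 for Hbb and 3.37 for Hba-a2. Without it they were 2.49, 2.40, 1.25, 0.75 and 0.99, against 1.64, 1.77, 1.03, 1.53 and 0.61 in all other kept cells. LOC103694857 and LOC689064 were added to the sum after their values were seen, since 90.01% and 85.3% of their P7 UMIs lay in that cell, and the files give no further name for them.

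Several genes that a cell makes in response to canonical Wnt signalling were higher in the low cells than in the rich cells at P7. In this pathway Wnt ligands stabilize beta-catenin, which with TCF and LEF factors switches on target genes, and many targets are inhibitors that close a feedback loop. Axin2, Notum, Nkd1, Nkd2, Wif1 and Apcdd1 are such inhibitors. The list of 19 feedback and target genes was drawn up after some of their values had been seen, so its counts are descriptive. Of 18 in the files 12 were compared. Against the rich cells, 1 was at least 2-fold higher at P1 and 7 at P7, and 0 were lower. Over all genes 0.568% were higher at P1 and 1.3% at P7. The medians of the list were 0.30 and 1.53 against 0.019 and 0.0045 over all genes. Between the ages 5 were higher and 0 lower, against 7.37% and 3.16% of all genes, with a median of 0.67 against 0.14.

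Notum had 404.9 CPM at P7 against 62.8 CPM in the rich cells, a log2 ratio of 2.60, after 54.9 and 38.3 CPM at P1. Nkd1, which binds Dishevelled and damps the signal, had 62.2 and 202.4 CPM against 48.9 and 26.7 CPM, with a log2 ratio of 2.71 at P7. Nkd2, its paralogue, had 52.9 and 154.3 CPM against 39.5 and 26.2 CPM. Both Nkd genes were thus higher at P7 than at P1 in the low cells and lower at P7 in the rich cells. Axin2, a scaffold of the beta-catenin destruction complex, had 63.1 and 74.9 CPM against 51.1 and 24.4 CPM. Sp5, a transcription factor, had 46.0 and 32.1 CPM against 21.0 and 5.04 CPM. Their ratios to the rich cells at P7, 1.44 and 1.89, came with levels in the rich cells that were lower at P7, since in the low cells Axin2 and Sp5 had ratios of P7 to P1 of 0.23 and -0.46. Lypd6, an enhancer of Wnt signalling, had 48.8 and 112.4 CPM against 18.4 and 13.3 CPM, and Bambi 32.3 and 325.5 CPM against 26.5 and 102.9 CPM. Wif1 and Apcdd1 had log2 ratios of 0.76 and 0.38 to the rich cells at P7, and Lef1 had 0.19. The receptors Lgr5 and Lgr6 and the inhibitors Dkk1 and Dkk4 had at most 3 UMIs at either age.

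The low cells were not alone in this. The Cldn5 and Car3 cells, set beside them here, were taken at any level of S100b and Col9a2. In the Cldn5 cells at P7, Notum had 582.3 CPM, Nkd1 127.4, Nkd2 82.6, Axin2 83.5, Wif1 343.4 and Apcdd1 329.9 CPM, so Nkd1 and Nkd2 were higher in the low cells and Notum, Wif1 and Apcdd1 in the Cldn5 cells. In the Car3 cells at P7, Notum had 9.97 CPM and Nkd1 10.3 CPM. After thinning, Notum had a UMI in 10.1% of low cells at P1 (7.88 to 12.8) and 30.2% at P7 (22.3 to 39.0), against 6.66% and 9.52% of rich cells and 0.769% and 1.42% of C1q-bearing cells. For Nkd1 the shares were 10.1% and 24.6%, against 8.71% and 4.41% of rich cells and 3.08% and 2.13% of C1q-bearing cells. Unthinned, Notum had a UMI in 25.8% and 47.3% of low cells, 18.4% and 19.6% of rich cells, and 3.03% and 9.59% of C1q-bearing cells. In single P7 cells Notum ran from 0 in 68 cells (52.7%) to 0.313% of UMIs, and at P1 it was at 0 in 462 cells (74.2%). Over 126 thinned P7 cells, Notum had a rho of 0.57 with Nkd1, 0.50 with Wif1 and 0.45 with Nkd2, and over 621 P1 cells 0.17, 0.14 and 0.059. Cells of 1 library share its pool of animals and its free RNA, and counts per cell were low.

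**Figure D5:**
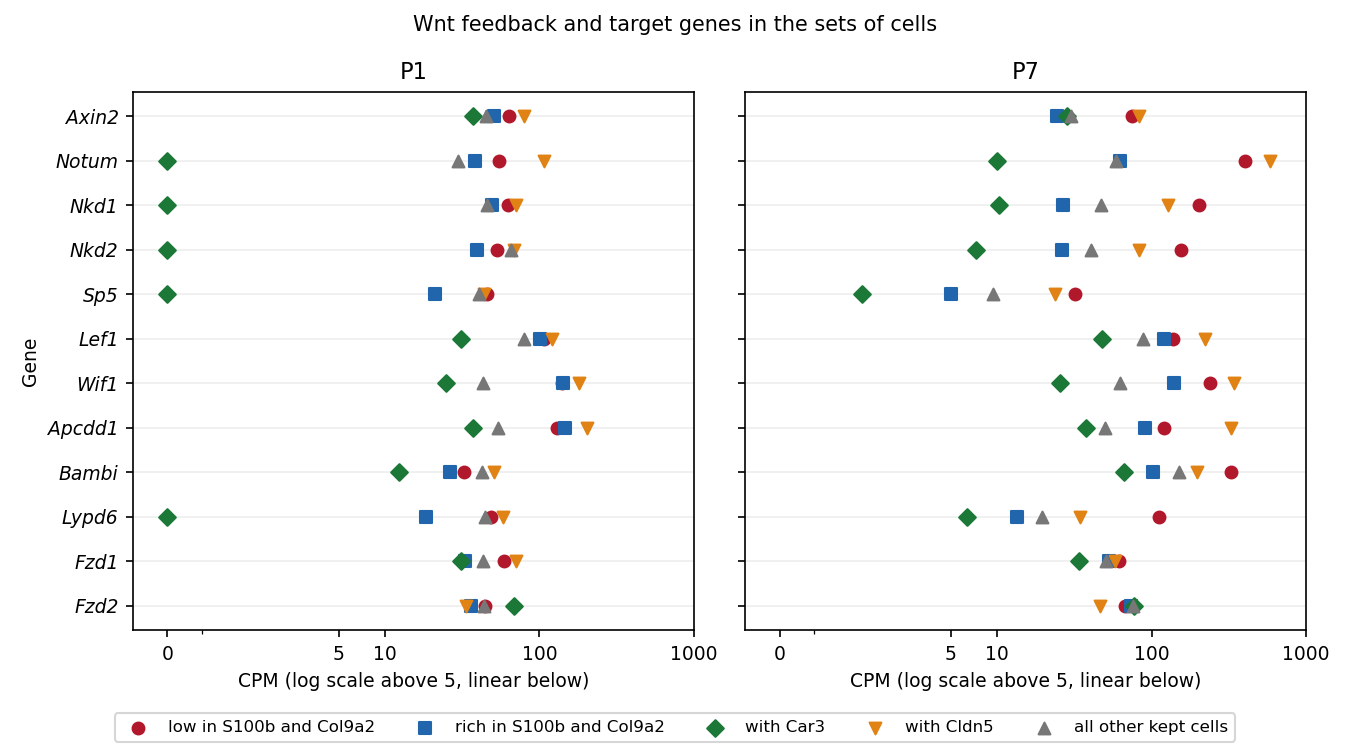
Levels in CPM (log scale above 5, linear below) of 12 Wnt feedback and target genes at P1 and P7 in the S100b-Col9a2-low cells, the S100b-Col9a2-rich cells, the Car3 cells, the Cldn5 cells and all other kept cells, with 1 point per library. At P7 Notum lies at 404.9 CPM in the low cells and 62.8 CPM in the rich cells, and Nkd1 at 202.4 and 26.7 CPM.

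The promoters of the list were read for the core motif of TCF and LEF factors, CTTTGAT or its reverse complement ATCAAAG, in the 250 bases before the start of each gene (RefSeq, build GRCr8, whereas the counts were made on rn6). Of 14 promoters with an entry 3 held it (21.4%), against 1054 of 33469 promoters of the table (3.15%). Those 3, of Nkd1, Axin2 and Sp5, are shown because they held the motif, which is in capitals, and each is written 5′ to 3′ on the strand of its gene. These genes had log2 ratios of 2.71, 1.44 and 1.89 to the rich cells at P7. The windows are chr19:34722847-34723096 on the minus strand for Nkd1, chr10:94398535-94398784 on the plus strand for Axin2 and chr3:75682427-75682676 on the plus strand for Sp5.
Nkd1: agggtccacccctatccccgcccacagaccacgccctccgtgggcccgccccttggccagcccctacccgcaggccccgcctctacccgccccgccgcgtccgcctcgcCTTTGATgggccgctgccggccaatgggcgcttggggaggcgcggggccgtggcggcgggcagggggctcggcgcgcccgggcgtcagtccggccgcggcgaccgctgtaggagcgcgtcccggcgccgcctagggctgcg
Axin2: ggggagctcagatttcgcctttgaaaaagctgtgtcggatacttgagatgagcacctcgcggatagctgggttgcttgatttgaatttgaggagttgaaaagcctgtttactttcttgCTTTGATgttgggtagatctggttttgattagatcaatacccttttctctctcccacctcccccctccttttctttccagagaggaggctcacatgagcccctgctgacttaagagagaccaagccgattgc
Sp5: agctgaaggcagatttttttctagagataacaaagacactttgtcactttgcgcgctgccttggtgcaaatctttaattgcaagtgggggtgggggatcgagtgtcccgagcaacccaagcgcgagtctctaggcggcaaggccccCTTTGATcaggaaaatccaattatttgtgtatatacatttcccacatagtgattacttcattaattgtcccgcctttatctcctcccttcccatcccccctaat
The motif begins at base -141 from the start in Nkd1, -132 in Axin2 and -104 in Sp5. A match is a description of these letters and no evidence of binding. The list was made of Wnt feedback and target genes, so its share of promoters with the motif says nothing about these cells. Nkd2, Bambi and Lypd6, with log2 ratios of 2.35, 1.615 and 2.68 to the rich cells at P7, had no match in this window. Wif1, Lef1 and Apcdd1 had none either, and Notum was not among the entries.

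Among other secreted regulators, 12 genes of the list of Wnt, BMP and hedgehog modulators were compared between the ages, with 5 higher at P7, against 7.37% of all genes, 0 lower and a median of 0.81 against 0.14. They were Sfrp4 (4.34 and 53.5 CPM), Gdf10, a BMP family ligand (16.7 and 91.0 CPM), Gli1, a hedgehog target (3.47 and 26.8 CPM), Sfrp2 (57.3 and 171.2 CPM) and Bmp2 (7.16 and 21.4 CPM). In the rich cells their log2 ratios of P7 to P1 were 2.55, 2.89, 1.67, 1.63 and 1.32, against 2.65, 2.15, 1.91, 1.501 and 1.12 in the low cells. All 5 were thus at least 2-fold higher at P7 in the rich cells as well, which Notum, Nkd1 and Nkd2 were not.

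The glial sum was 608.5 and 809.8 CPM, against 2177 and 6157 CPM in all other kept cells, of which Dbi, which is not restricted to glia, gave 549.9 and 626.0 CPM. Hair cell markers summed to 18.7 and 30.3 CPM, against 134.9 and 17.3 CPM in all other kept cells, nearly all of it Pvalb (18.4 and 29.4 CPM), with Myo7a, Otof and Gfi1 at 0 in both libraries. Strial and melanocyte markers summed to 2.17 and 0.892 CPM. Bone and cartilage markers summed to 82.0 and 66.9 CPM, against 490.2 and 945.8 CPM in the rich cells, most of it Cnmd. At P7 the sums of endothelial and pericyte markers, 115.0 and 199.8 CPM, stood against 95.4 and 226.9 CPM in all other kept cells, so the endothelial and hair cell sums were above those cells and the pericyte sum near them. What part free RNA from other cells had in these levels was not tested.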

How the data were processed

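The authors deposited UMI counts per gene and barcode, made with Cell Ranger 3.1.0 on rn6 from 10x 3′ libraries, 1 at P1 and 1 at P7, with 32623 genes. Their methods also name Seurat 3.1.1. Barcodes were filtered and chosen as given above. Counts were summed over the cells of a set and scaled to CPM. A gene was compared where its mean over both sides was at least 10 CPM, and was called at a 2-fold ratio of CPM plus 5. No replicate exists, so no test was run. Named genes came from the rule and the proposed markers, the 15 with the highest CPM, the 15 with the largest ratio each way between ages, the 12 each way against the rich cells and the 12 above all other kept cells (at least 100 UMIs on the higher side), the 10 most variable over cells, and the leading members of gene lists. Wnt genes, Gcg, the neuropeptide Pmch, Isyna1 and some further genes were named after their values were seen. The members and lists were chosen with earlier results of these data known. Depth was given above, and intervals cover counting error only. Cells were thinned to 2000 UMIs for shares of cells with a UMI. Scrublet calls were used only as an alternative. The calculations were checked on simulated data. Python 3.11.15, numpy 2.4.6, scipy 1.17.1, pandas 2.3.3 and scanpy 1.11.5 were used. Promoters came from RefSeq (GRCr8).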

Additional observations from a re-analysis of the deposited data

Results flagged for a closer look

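For 3 genes the S100b-Col9a2-low cells stood at least 2-fold below the S100b-Col9a2-rich cells at P1 and at least 2-fold above them at P7, and with 1 library per age the difference was not tested. Isyna1, which encodes the enzyme that makes inositol phosphate, had 276.7 CPM at P1 and 256.8 CPM at P7 in the low cells, against 1551 and 90.1 CPM in the rich cells, so that the log2 ratio was -2.47 at P1 and 1.46 at P7. The Cldn5 cells held it at 379.3 and 315.4 CPM and all other kept cells at 263.2 and 77.6 CPM. LOC103694857 had log2 ratios of -1.80 and 1.40, and Hba-a2.1 of -1.94 and 1.20. The P7 values of LOC103694857 and Hba-a2.1 rest on the single haemoglobin-rich cell, without which their P7 levels in the low cells were 246.6 and 74.97 CPM, against 919.1 and 342.4 CPM in the rich cells.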

How the results depend on the processing

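No paired analysis was possible because each age had 1 library. The lower share of S100b-Col9a2-low cells at P7 held under every alternative run, with log2 ratios from -2.45 to -2.02 apart from -1.48 with Otor at 2% or more and -1.66 with S100b plus Col9a2 below 0.4%. Counts of genes depended on the settings. Of genes higher at P7 (530) there were 839 with Otor at 2%, 172 with a pseudocount of 20 CPM, 246 at 30 CPM or more, and 113, with 195 lower, among genes with 100 UMIs in the higher library, an alternative chosen after seeing the data. The 100-UMI limit turned the split between higher and lower genes, with 36.7% higher. The low cells summed to 4611526 UMIs at P1 and 1121326 at P7. A limit in UMIs thus asks for a higher CPM of a gene higher at P7 than of a gene lower at P7. The turned split is therefore no result about the cells. The 15 genes named each way between the ages were picked under the same limit. Of genes lower at P7 (227) there were 458 with Otor at 2%, 387 in thinned cells, 388 scaled without the genes of the rule and mitochondrial, ribosomal protein and haemoglobin genes, 371 after centring, 358 with a pseudocount of 1 CPM, 70 with 20 CPM and 111 at 30 CPM or more. Of genes higher than in the rich cells (27) there were 15 with Crym at 0.5%, 53 with S100b plus Col9a2 below 0.1%, 18 below 0.4%, 43 and 10 with pseudocounts of 1 and 20 CPM, and 16 at 30 CPM or more. Of those lower (34) there were 73 below 0.1%, 21 below 0.4%, 51 with Otor at 2%, and 52 and 19 with pseudocounts of 1 and 20 CPM. The causes were not tested. Leaving out the haemoglobin-rich P7 cell, also chosen after seeing the data, gave 532 higher and 224 lower genes. Among the ratios of single genes, no called value changed sign under the alternatives run on them, but many changed in size. Of 80 values, ratios of named genes and numbers of cells, 29 moved by more than their counting interval allows with S100b plus Col9a2 below 0.1%. With it below 0.4% 25 did, in thinned cells 24, and with Otor at 2% 22. With Otor at 2%, the P1 ratio to the rich cells was 0.62 for Nr2f1, below 2-fold, and 1.35 for Mpp6, above its main value. The 129 cells at P7 limit what low genes can show.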
